A study of Mus musculus with 12 samples.

Results

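The loci described here are the copies of the MIR, L2, CR1 and RTE repeat families that carried at least 20 reads on average over the 6 libraries of a deposited table of repeat loci. They are called the old-repeat loci below. There were 4205 of them, out of 40976 annotated loci of these families and 4929385 repeat loci of all kinds in the table. Of the 4205, 2631 were MIR, 1282 L2, 201 CR1, 76 RTE-X and 15 RTE-BovB. The mean number of reads chose the loci, so their level is given as a description and supports nothing.

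MIR elements are short interspersed elements that arose from a tRNA and borrowed the end of an L2 element, whose enzymes copied them. L2, CR1 and RTE are long interspersed elements, which copy themselves through an RNA intermediate. None of these families moves in mice today, and the copies left are short, diverged fragments, many of them inside introns and some reused as regulatory sequence. Such a fragment is often transcribed as a piece of a longer RNA. N6-methyladenosine (m6A) is the most common internal mark of messenger RNA, it also occurs on RNA held at chromatin, and ALKBH5 is one of the enzymes that remove it.

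The study measured m6A on chromatin-associated RNA of E14TG2a cells, a mouse embryonic stem cell line, by immunoprecipitation with an m6A antibody and sequencing. The genotypes were Alkbh5 del-cIDR (called ΔcIDR here, the labels do not spell out cIDR), Alkbh5 KO and WT, with 2 libraries each. All were grown with serum, LIF and the kinase inhibitors PD0325901 and CHIR99021. The KI columns of the tables were taken as ΔcIDR, the genotype not named otherwise, and the KO columns share a number of unstated meaning in their name, so they may come from 1 line. The labels do not say whether replicates came from separate cultures, so the tests measure the spread between these libraries, which may be technical. Columns were read as immunoprecipitated, with 0 read as input, so a value is the signal pulled down, and a change in m6A and a change in RNA amount cannot be told apart. With 2 libraries a group, an exact permutation test cannot give a p below 0.33, and the tests below are from limma fitted across all 234605 repeat loci with at least 20 reads.

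The libraries held 20922839 to 26267351 reads at repeat loci. The old-repeat loci took 1.22% and 1.26% of them in ΔcIDR, 1.27% and 1.30% in KO, and 1.27% and 1.23% in WT. Both KO values lay above the others, the lower one only just above the nearest WT library, and ΔcIDR and WT overlapped. The deposited values carry 1 factor per library, which rests on 814 to 1870 reads of a methylated spike-in RNA. Changes are log2 of signal plus 2 with the median tested locus of every library set to 0. A change of 0 therefore means that a locus moved like the median repeat locus, and changes of low loci are understated. On the deposited scale the median of all tested loci stood at -0.29 for KO against WT, 0.36 for ΔcIDR against WT and 0.65 for ΔcIDR against KO. On a scale set by ERCC RNA reads the same medians were 0.10, -0.28 and -0.38, so the overall direction depended on the spike-in and the text keeps to changes relative to the median locus.

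Short fragments made up the set. The median length was 121 bases, with a range from 29 to 933, and 114 bases for MIR, 140 for L2, 154 for CR1, 153.5 for RTE-X and 191 for RTE-BovB. The median locus had 43 reads per library, 686 loci had at least 100 and 21 had at least 500. Of the annotated loci of these families, 10.3% reached 20 reads, beside 10.8% for SINE B2, 9.23% for SINE B4, 8.25% for DNA transposons, 6.95% for SINE B1, 6.03% for MaLR, 3.6% for LINE-1 and 4.76% for all repeat loci. The share was 11.4% for L2, 10.2% for MIR, 7.56% for CR1, 7.27% for RTE-X and 7.21% for RTE-BovB. Just inside the minimum, at 20 reads, lay an L2 locus on chromosome 2 (chr2:104840580-104841057) with 14 and 10 reads in ΔcIDR, 26 and 25 in KO, and 20 and 25 in WT. Another was a MIR locus on chromosome 5 (chr5:121755079-121755263), with 18 and 26 reads in ΔcIDR, 16 and 16 in KO, and 14 and 30 in WT. Just outside, at 19.8 reads, lay a MIR locus on chromosome 16 (chr16:50031571-50031641) with 13 and 26 reads in ΔcIDR, 23 and 22 in KO, and 21 and 14 in WT. An L2 locus on chromosome 3 (chr3:108032980-108033171) had 16 and 15 reads in ΔcIDR, 26 and 25 in KO, and 17 and 20 in WT. Without the KO libraries 352 of the 4205 loci would fall below the minimum, without the ΔcIDR libraries 89 and without the WT libraries 102, and 27 of the loci overlap another repeat locus. Coordinates are the deposited ones, on GRCm39, with no statement of whether counting begins at 0 or 1, and the loci are not assigned to genes, exons or introns here.

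The locus with the most reads was a CR1 fragment of 73 bases on chromosome 9 (chr9:22249294-22249366). It had 1453 and 1883 reads in ΔcIDR, 1285 and 1176 in KO, and 1461 and 1118 in WT. The ΔcIDR libraries lay above the KO libraries, and the WT libraries spanned much of the gap. Against KO the ΔcIDR change was 0.72 ± 0.14 (log2, SE, n = 2 each, limma adjusted p = 0.000789), against WT it was 0.47 ± 0.14 (adjusted p = 0.185), and KO against WT was -0.25 ± 0.14 (adjusted p = 0.321). The leading MIR locus, on chromosome 4 (chr4:119140680-119140789), had 1267 and 1517 reads in ΔcIDR, 1289 and 1216 in KO, and 1520 and 1213 in WT. The leading L2 locus, on chromosome 6 (chr6:144945152-144945254), had 1045 and 1176 reads in ΔcIDR, 1381 and 1147 in KO, and 1199 and 1014 in WT. ΔcIDR and WT overlapped at both loci, and KO against WT missed the threshold for both, with changes of -0.31 ± 0.13 (limma adjusted p = 0.174) for the MIR locus and 0.00 ± 0.13 (adjusted p = 0.999) for the L2 locus. In ΔcIDR against KO the MIR locus passed, at 0.44 ± 0.13 (limma adjusted p = 0.0237). This call was lost with ΔcIDR replicate 2, KO replicate 1 or KO replicate 2 left out. The L2 locus did not pass there, at 0.11 ± 0.13 (limma adjusted p = 0.619).

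Among the 10 loci with most reads, 3 passed the test for KO against WT, which 7.37% of all tested repeat loci passed. The 2 shares are at unlike depth, and 18.5% of old-repeat loci with 200 or more reads passed. A MIR locus on chromosome 8 (chr8:43638988-43639187) had 653 and 638 reads in ΔcIDR, 1686 and 1572 in KO, and 809 and 786 in WT. Both KO libraries stood above all others, at 0.84 ± 0.13 against WT (log2, SE, n = 2 each, limma adjusted p = 0.000167). On chromosome 12, a MIR locus (chr12:109510419-109510468) had 1011 and 1143 reads in ΔcIDR, 865 and 883 in KO, and 1277 and 1238 in WT. KO was lowest there, by -0.72 ± 0.13 against WT (limma adjusted p = 0.000951), with no overlap between groups. The leading RTE-X locus, on chromosome 1 (chr1:59731832-59731950), had 677 and 816 reads in ΔcIDR, 1036 and 1132 in KO, and 711 and 600 in WT. KO was highest, at 0.54 ± 0.14 against WT (limma adjusted p = 0.0214), and ΔcIDR against WT was 0.29 ± 0.14 (adjusted p = 0.486). The KO call at this locus was lost with KO replicate 1, KO replicate 2 or WT replicate 2 left out, and that of the chromosome 12 locus with KO replicate 1 left out. The leading RTE-BovB locus, on chromosome 12 (chr12:71281412-71281615), had 152 and 173 reads in ΔcIDR, 299 and 253 in KO, and 220 and 247 in WT. Both ΔcIDR libraries were the lowest, but ΔcIDR against WT, -0.42 ± 0.17, missed the threshold (limma adjusted p = 0.368).

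**Figure D1:**
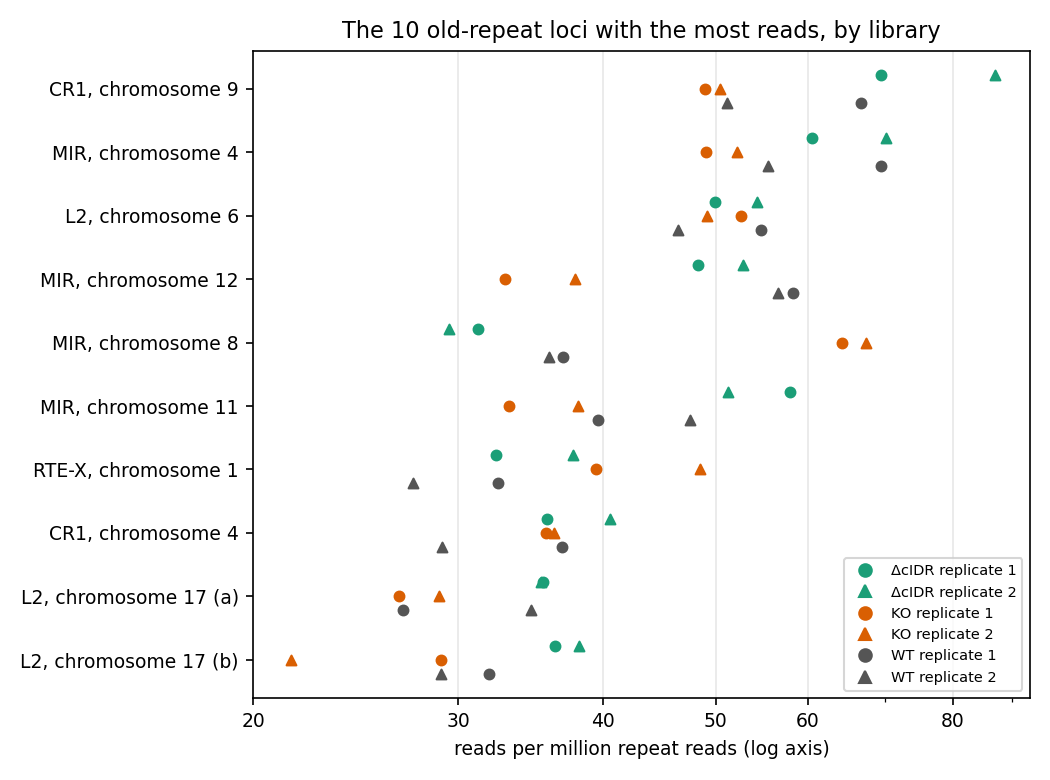
Reads per 1000000 repeat reads (RPM, log axis) of the 10 old-repeat loci with the most reads, 1 point per library, with circles for replicate 1 and triangles for replicate 2 of each genotype. The MIR locus on chromosome 8 stands at 64.2 and 67.4 in KO, apart from every other library, and the L2 locus on chromosome 6 shows all genotypes mixed.

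Few of the loci lay under the genomic intervals in the other deposited table. At least 50% of the length was covered for 58 of 4205 old-repeat loci (1.38%), beside 4.32% of all tested repeat loci and 12.5% of LINE-1 loci. Other families had low shares too, with 1.6% of MaLR, 1.13% of SINE B1, 0.677% of SINE B4, 0.571% of SINE B2 and 0.507% of DNA transposon loci. A low share was therefore not particular to the old-repeat loci. By family the 58 were 31 MIR, 20 L2, 5 CR1, 1 RTE-X and 1 RTE-BovB loci. Any overlap gave 81 loci and complete cover gave 36. The loci under an interval had a median of 69.3 reads, against 42.8 for the others. In ΔcIDR against KO, 17 of the 58 were higher and 5 lower in the test (37.9%), and 384 and 409 of the 4147 others (19.1%), beside 18.2% of all tested repeat loci. These shares differ in depth as well as in position, and the difference was not tested.

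Between KO and WT the old-repeat loci differed in both directions about as often as other repeats. In KO against WT, 323 of 4205 loci passed an adjusted p of 0.05 (7.68%), beside 7.37% of all tested repeat loci. Of these, 154 were higher in KO (3.66%, beside 3.15% of all loci) and 169 were lower (4.02%, beside 4.22%). The higher and lower loci numbered 89 and 85 for MIR, 52 and 70 for L2, 8 and 13 for CR1, and 5 and 1 for RTE-X. No RTE-BovB locus passed by limma, and 1 of 15 had an unadjusted p under 0.05 (6.67%, beside 21.6% of all tested loci). The share that passed was 6.61% for MIR, 9.52% for L2 and 10.4% for CR1. The median change over the old-repeat loci was 0.04 ± 0.03 (log2, SE from the medians per library), and 0.01 over all tested loci. On the deposited scale 8 loci were higher and 143 lower (0.227% and 3.64% of all loci), and on the ERCC scale 198 and 113 (4.23% and 2.97%). The edgeR test on the recovered reads called 180 higher and 192 lower (3.79% and 4.66% of all loci), and DESeq2 67 and 73 (1.51% and 2.15%). The limma count was 70 when KO replicate 1 was left out, 84 for KO replicate 2, 195 for WT replicate 1 and 127 for WT replicate 2. Of the 154 loci higher in KO, 25 reached the minimum only with the KO libraries.

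Depth moved with the number of calls. Among loci with 20 to 30 reads 3.70% passed, among those with 50 to 100 reads 10.1%, and among those with 200 or more 18.5%. The median gap between the KO replicates shrank over the same classes, with 0.36 on the log2 scale at 20 to 30 reads, 0.21 at 50 to 100 and 0.12 at 200 or more. For KO against WT the lowest called size was 0.54 among higher loci and -0.55 among lower ones.

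Of the 8 largest increases in KO, 7 were at loci that reached the minimum only with the KO libraries, the CR1 locus on chromosome 10 being the other, so the rule itself fixed that those 7 had few reads elsewhere, and their calls are a description. A CR1 locus on chromosome 11 (chr11:88207699-88207899) had 13 and 10 reads in ΔcIDR, 67 and 50 in KO, and 9 and 4 in WT, a change of 2.91 ± 0.52 for KO against WT (log2, SE, n = 2 each, limma adjusted p = 0.000819). An RTE-X fragment of 35 bases on chromosome 8 (chr8:88617650-88617684) had 11 and 8 reads in ΔcIDR, 74 and 68 in KO, and 8 and 12 in WT, a change of 2.57 ± 0.46 (limma adjusted p = 0.000775). KO stood apart at both, and ΔcIDR overlapped WT at the RTE-X locus. At the CR1 locus ΔcIDR lay above both WT libraries, but the change of 0.90 ± 0.52 missed the threshold (limma adjusted p = 0.558). The ΔcIDR and WT libraries did not overlap at 39.1% of all tested loci. On chromosome 5, 2 neighbouring MIR loci both rose in KO. The first (chr5:114403785-114403892) had 2 and 12 reads in ΔcIDR, 43 and 56 in KO, and 11 and 8 in WT. The second (chr5:114405059-114405208) had 9 and 14 reads in ΔcIDR, 42 and 53 in KO, and 8 and 7 in WT. Their changes were 2.11 ± 0.65 (limma adjusted p = 0.0468) and 2.35 ± 0.51 (limma adjusted p = 0.00474). A CR1 locus on chromosome 10 (chr10:61777396-61777620) had 42 and 22 reads in ΔcIDR, 49 and 54 in KO, and 19 and 6 in WT. It was higher in KO by 1.99 ± 0.45 (limma adjusted p = 0.0065), while ΔcIDR against WT was 1.52 ± 0.45 (adjusted p = 0.18), and its ΔcIDR libraries lay above both WT libraries. These increases lost the call when 1 of the KO libraries was left out. The other 3 of the 8 largest increases were L2 loci on chromosomes 1 and 8 (chr1:191660936-191661016 and chr8:79785547-79785648) and a MIR locus on chromosome 4 (chr4:140275108-140275238). Over the 3, KO libraries held 31 to 57 reads, ΔcIDR libraries 7 to 17 and WT libraries 4 to 13, and the changes were 2.32 ± 0.58, 2.08 ± 0.55 and 2.04 ± 0.47 (limma adjusted p = 0.013, 0.0202 and 0.00825). All 3 calls were lost with KO replicate 1, KO replicate 2 or WT replicate 1 left out, and on the deposited scale. The calls of the 2 L2 loci were also lost with DESeq2.

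Among the loci that fell in KO, an L2 locus on chromosome 10 (chr10:98897889-98898048) had 29 and 36 reads in ΔcIDR, 2 and 3 in KO, and 36 and 39 in WT, a change of -3.59 ± 0.51 for KO against WT (log2, SE, n = 2 each, limma adjusted p = 7.26e-05). Reads were near 0 in KO and not in the other groups, and the locus reached the minimum only with the WT libraries. With far more reads, a MIR locus on chromosome 2 (chr2:164283722-164283790) had 279 and 288 reads in ΔcIDR, 61 and 64 in KO, and 293 and 256 in WT, a change of -2.30 ± 0.19 (limma adjusted p = 1.59e-08). ΔcIDR and WT overlapped there, and KO lay far below both. On chromosome 4, 2 L2 loci from the same region both fell in KO. One (chr4:138266100-138266239) had 59 and 65 reads in ΔcIDR, 15 and 6 in KO, and 47 and 74 in WT. The other (chr4:138281051-138281236) had 70 and 56 reads in ΔcIDR, 13 and 13 in KO, and 51 and 57 in WT. Their changes were -2.65 ± 0.36 (limma adjusted p = 4.02e-05) and -2.14 ± 0.32 (limma adjusted p = 0.000117). These 4 decreases passed with each library left out in turn. The other 4 of the 8 largest decreases included an L2 locus on chromosome 9 (chr9:36953365-36954066) with 66 and 74 reads in ΔcIDR, 14 and 21 in KO, and 55 and 77 in WT, at -2.04 ± 0.31 (limma adjusted p = 0.000167). An L2 locus on chromosome 2 (chr2:115797250-115797364) had 31 and 33 reads in ΔcIDR, 7 and 2 in KO, and 17 and 34 in WT, at -2.45 ± 0.55 (limma adjusted p = 0.00634). KO was the lowest group at both, and the chromosome 2 locus reached the minimum only with the WT and the ΔcIDR libraries. The call of this L2 locus on chromosome 2 was lost with KO replicate 2 or WT replicate 2 left out. The rest, an L2 locus on chromosome 18 and a MIR locus on chromosome 11, are described with ΔcIDR against KO.

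**Figure D2:**
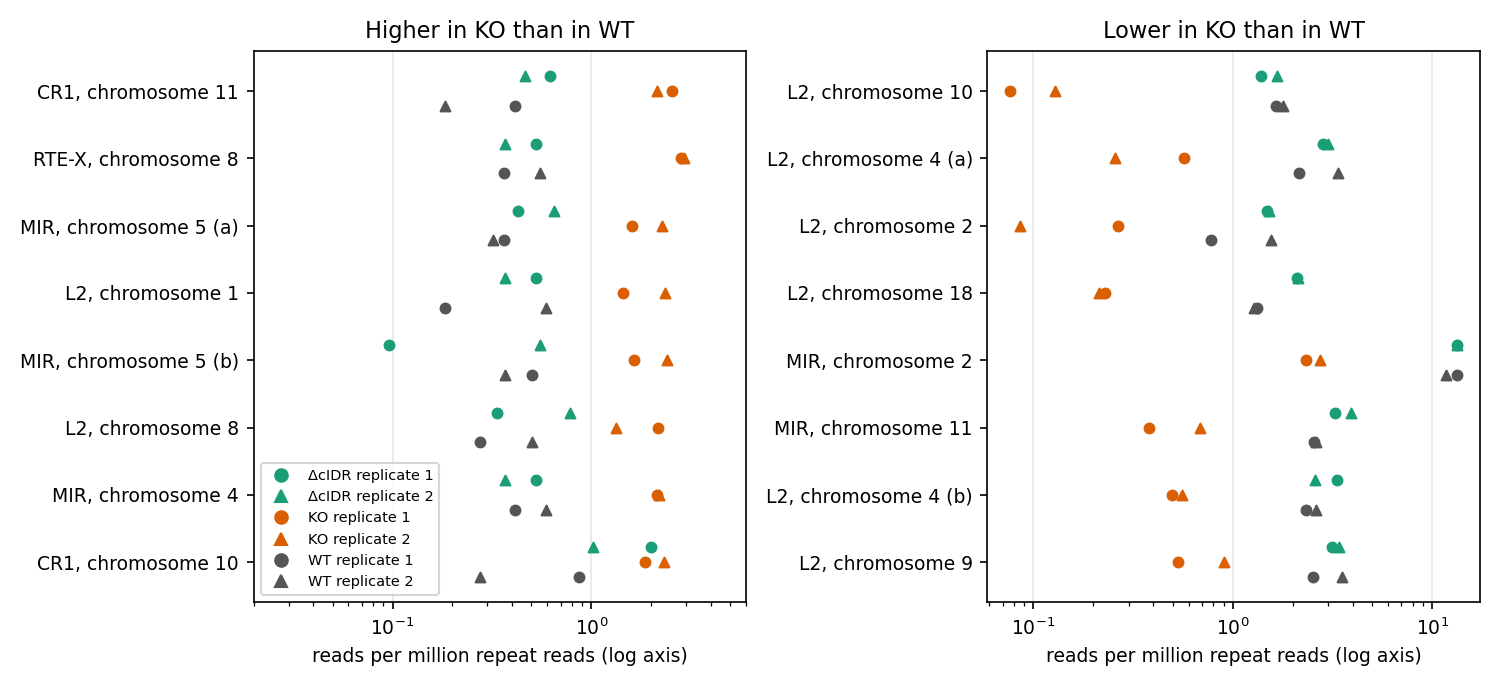
Reads per 1000000 repeat reads (log axis) of the 8 old-repeat loci with the largest increase (left) and the 8 with the largest decrease (right) in KO against WT among loci past an adjusted p of 0.05, 1 point per library. Rows were also chosen for KO and WT libraries that do not overlap, so that KO points stand apart from WT was fixed by the choice. The ΔcIDR points of the CR1 loci on chromosomes 10 and 11 lie above both WT points, as do those of some other rows.

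The loci that changed in KO did not change alike in ΔcIDR. Over the 154 loci higher in KO, the median change of ΔcIDR against WT was 0.01 (interquartile range -0.28 to 0.33), beside 1.04 for KO against WT. Over the 169 loci lower in KO it was 0.11 (-0.10 to 0.33), beside -1.07 for KO against WT. Of all 323, 142 lay on the same side of WT in ΔcIDR as in KO. These loci were chosen by the KO contrast, and both contrasts share the WT libraries, so the values are a description.

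Some chromosomes carried more of the loci that were higher in KO. Over the 278 old-repeat loci on chromosome 6 the median level relative to WT was -0.22 and -0.09 in the ΔcIDR libraries, and 0.33 and 0.31 in the KO libraries. Over the 184 on chromosome 8 it was -0.27 and -0.23 in ΔcIDR, and 0.36 and 0.36 in KO. Over the 73 on chromosome 11 between 8 and 56 Mb, a stretch chosen with earlier results known, it was 0.10 and 0.13 in ΔcIDR, and 0.57 and 0.65 in KO. All repeat loci of these regions moved too. The median change for KO against WT was 0.32 on chromosome 6, 0.40 on chromosome 8 and 0.58 in the chromosome 11 stretch for the old-repeat loci, beside 0.35, 0.32 and 0.51 for all tested loci. These regions held 56 of the 154 loci higher in KO and 7 of the 169 lower ones, among 535 loci (10.5% and 1.31%), and of all tested loci there 10.1% were higher and 1.30% lower. The other 3670 held 98 higher and 162 lower ones (2.67% and 4.41%), beside 2.01% and 4.70% of all tested loci. When the regions were left out of the fit, 104 loci were higher and 125 lower. Their part in the results was not tested further.

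**Figure D3:**
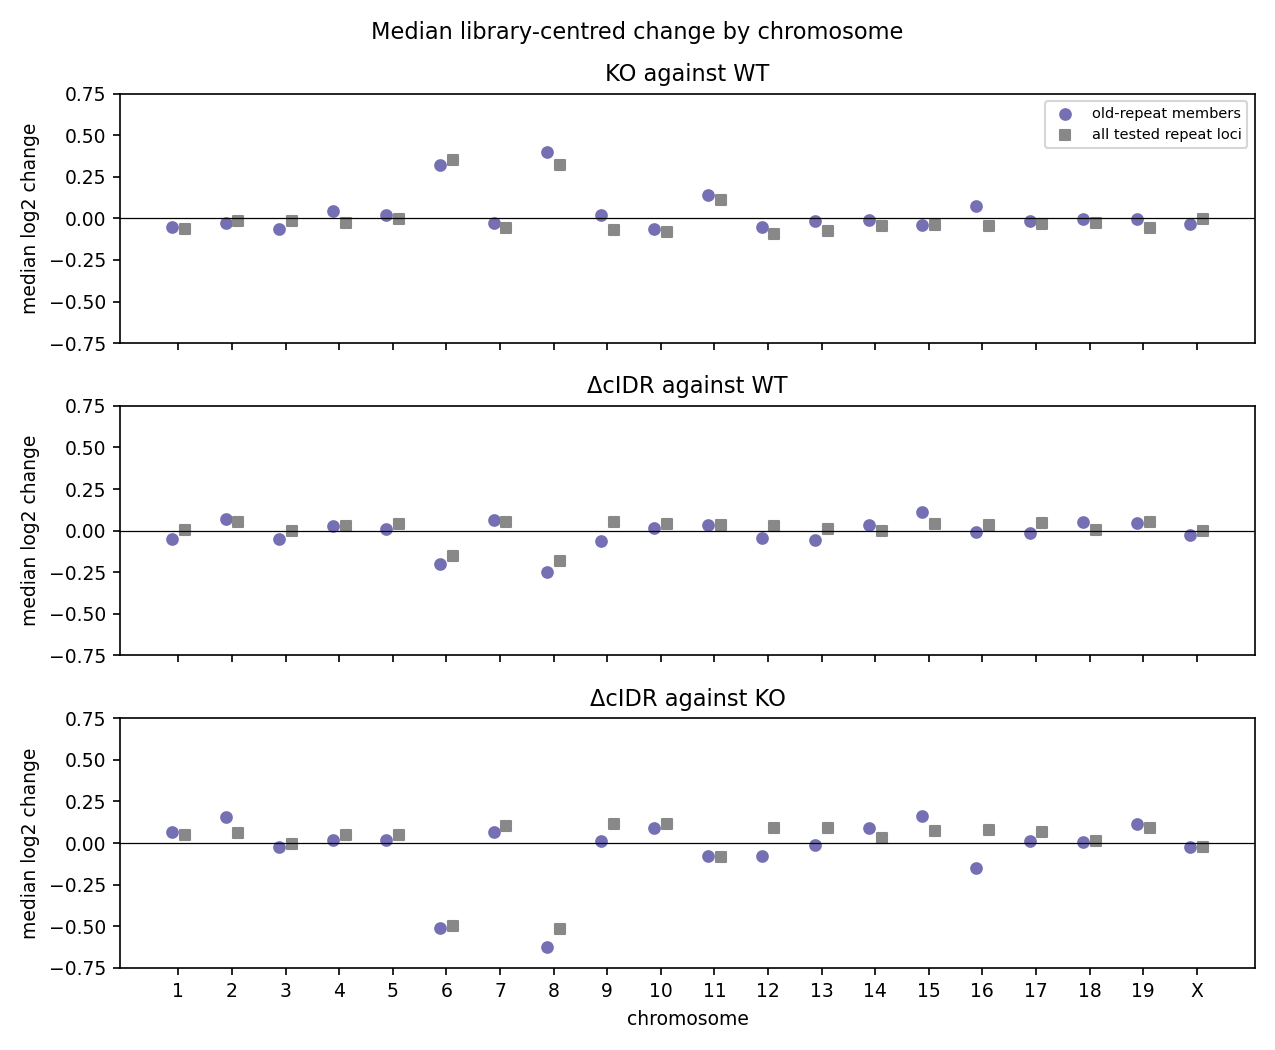
Median library-centred log2 change per chromosome (y axis) for old-repeat loci (circles) and all tested repeat loci (squares), for KO against WT, ΔcIDR against WT and ΔcIDR against KO. Chromosomes 6 and 8 stand out in all 3 panels, above 0 for KO against WT (0.32 and 0.40 for old-repeat loci) and below 0 in the other two.

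An old-repeat locus and the repeats of other families around it moved alike. For 4164 loci, signal was summed over other-family repeat loci between 500 bases and 5 kb away, where these had at least 20 reads in total, a median of 17 neighbours. Across loci, the change of a locus and that of its neighbours had a Pearson correlation of 0.73 for KO against WT, 0.42 for ΔcIDR against WT and 0.77 for ΔcIDR against KO. Over 7444 DNA transposon loci, also old and immobile, the correlations were 0.71, 0.39 and 0.76. Their neighbours were likewise taken outside MIR, L2, CR1 and RTE, and so could include other DNA transposons. Points share libraries and neighbours and are not independent, so no p is given. Of 153 loci higher in KO with neighbours, 148 had neighbours on the same side (96.7%), and of 165 lower ones 161 did (97.6%). Over all 4164 loci, neighbours were higher in KO for 48.1%. For DNA transposons the same-side counts were 213 of 218 higher loci (97.7%) and 217 of 218 lower ones (99.5%). The median change was larger at the old-repeat loci than at their neighbours, 1.04 against 0.66 for the higher and -1.07 against -0.77 for the lower loci. The old-repeat loci were picked for their size of change and the neighbours were not. The leading L2 locus on chromosome 6 did not follow its surroundings, at 0.00 for KO against WT with its neighbours at 0.77, and at 0.11 for ΔcIDR against KO with its neighbours at -1.02.

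**Figure D4:**
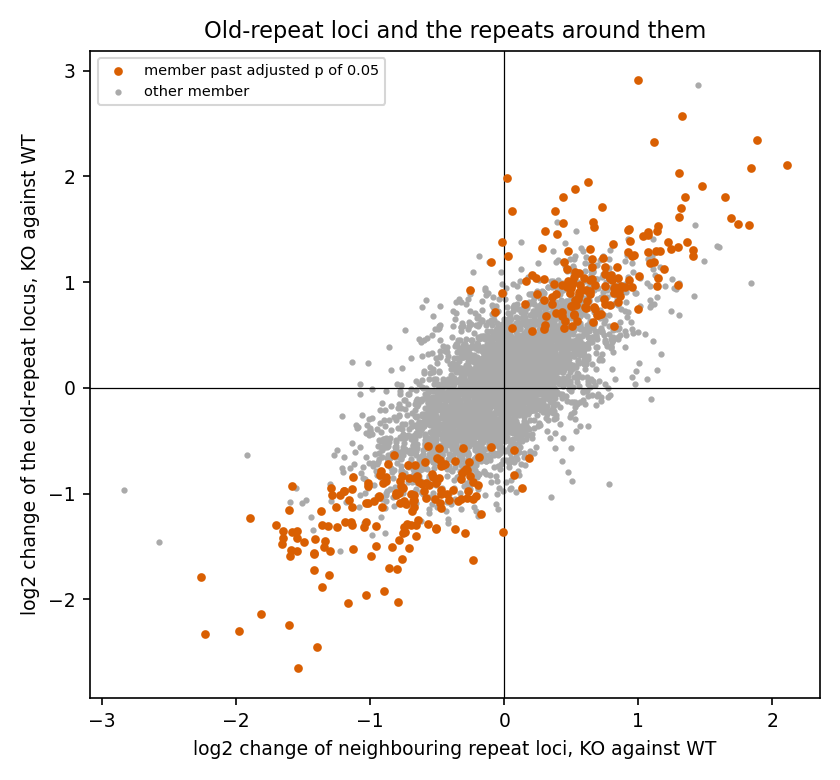
Log2 change in KO against WT of each old-repeat locus (y axis) against that of the repeat loci of other families between 500 bases and 5 kb away (x axis). Orange points are loci past an adjusted p of 0.05. Nearly all of them lie in the quadrants where the locus and its neighbours have the same sign (148 of 153 higher and 161 of 165 lower). For DNA transposons, not drawn, the counts were 213 of 218 and 217 of 218.

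The reads per base at an old-repeat locus were a median of 3.13 times those of its neighbours, with an interquartile range from 1.68 to 5.90, beside 1.81 for DNA transposons. For 39.9% of the loci the ratio was at least 4. The minimum on reads favours loci above their surroundings, and a short locus can also collect reads that run past its ends, so the size of this ratio is a description. The ratio reached 99.0 at the leading CR1 locus on chromosome 9 and 248 at the L2 locus on chromosome 4 described with ΔcIDR.

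Of the 4205 loci, 1409 (33.5%) lay in 582 runs, groups of old-repeat loci with no more than 10 kb from one to the next. The longest run, on chromosome 4 (chr4:125417043-125453322), held 10 loci, of which 7 were MIR, 2 L2 and 1 RTE-X. Its reads summed to 863 and 886 in ΔcIDR, 1287 and 1195 in KO, and 978 and 955 in WT, and 0 of the 10 passed the limma test in any comparison. A run of 9 loci on chromosome 2 (chr2:153333558-153365003) and 1 of 8 (chr2:156503461-156530837) had median changes of 0.05 and -0.14 in KO against WT. A run of 7 on chromosome 5 (chr5:32079196-32101789) had a median of 0.56. The 6 loci of a run on chromosome 2 (chr2:90368125-90383697) summed to 418 and 485 reads in ΔcIDR, 262 and 240 in KO, and 317 and 323 in WT. The groups did not overlap there, with ΔcIDR highest and KO lowest, and 4 of its 6 loci were called higher in ΔcIDR against KO.

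In 22 runs at least 2 loci passed the test for KO against WT, 48 loci in all, and in 0 of these runs did called loci differ in direction. For ΔcIDR against KO there were 71 such runs with 162 called loci, and called loci differed in direction in 1 run. Runs of other repeats were not counted, so this is a description. For KO against WT, the runs with most calls, 3 each, were picked after their values were seen, and in each the called loci were higher in KO. A run of 6 on chromosome 4 (chr4:127075164-127095720) had 434 and 456 reads in ΔcIDR, 1096 and 926 in KO, and 487 and 563 in WT. A run of 3 MIR loci on chromosome 9 (chr9:43654808-43664398) had 156 and 214 reads in ΔcIDR, 486 and 492 in KO, and 170 and 205 in WT. KO was the highest group in both, and ΔcIDR and WT lay close together. The other two were a run of 5 on chromosome 15 (chr15:103243904-103267067) and a run of 4 on chromosome 4 (chr4:140260258-140279040), with median changes of 1.15 and 1.14.

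Few old-repeat loci differed between ΔcIDR and WT in the test. In ΔcIDR against WT 9 of 4205 passed (0.214%), beside 0.257% of all tested loci, with 4 higher and 5 lower, and 464 had an unadjusted p under 0.05 (11%, beside 10.7% of all tested loci). The edgeR test called 4 higher and 6 lower (0.175% and 0.156% of all loci), and DESeq2 5 and 4 (0.176% and 0.0652%). On the deposited scale the limma test called 0 in either direction (0.0729% and 0.0217% of all loci), with 512 at an unadjusted p under 0.05 (12.2%, beside 11.6% of all tested loci). On the ERCC scale it called 0 higher and 76 lower (0.0422% and 1.29% of all loci). Single libraries decided the count, which was 6 with ΔcIDR replicate 1 left out, 13 for ΔcIDR replicate 2, 2 for KO replicate 1, 3 for KO replicate 2, 2 for WT replicate 1 and 1 for WT replicate 2. Each of the 9 calls was lost with at least 1 library left out.

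The 4 loci higher in ΔcIDR than in WT all stood far above their surroundings, with 24.3 to 248 times the reads per base of their neighbours. A MIR locus on chromosome 2 (chr2:154411034-154411154), wholly under a deposited interval, had 455 and 535 reads in ΔcIDR, 464 and 506 in KO, and 307 and 267 in WT. It was higher in both mutants, by 0.88 ± 0.16 in ΔcIDR (log2, SE, n = 2 each, limma adjusted p = 0.00807) and by 0.57 ± 0.16 in KO (limma adjusted p = 0.0263), while its neighbours stood at 0.20 and 0.06. Its KO call was lost on the deposited scale, with DESeq2, and with KO replicate 1, KO replicate 2 or WT replicate 2 left out. On chromosome 7, a MIR locus (chr7:79115384-79115474) had 620 and 639 reads in ΔcIDR, 223 and 189 in KO, and 342 and 415 in WT. The mutants lay on opposite sides of WT, at 0.84 ± 0.16 in ΔcIDR (limma adjusted p = 0.0128) and -1.06 ± 0.16 in KO (limma adjusted p = 0.000106). An L2 locus on chromosome 4 (chr4:19687779-19687895) had 515 and 559 reads in ΔcIDR, 370 and 382 in KO, and 341 and 376 in WT. It was 0.68 ± 0.15 higher in ΔcIDR than in WT (limma adjusted p = 0.0496), with its neighbours at -0.15. This call was lost with any 1 of the 6 libraries left out, with edgeR, and on the deposited and ERCC scales. The last, a MIR locus on chromosome 2 (chr2:90885023-90885082), had 128 and 130 reads in ΔcIDR, 124 and 113 in KO, and 70 and 72 in WT, a change of 0.95 ± 0.21 for ΔcIDR (limma adjusted p = 0.0493) and 0.54 ± 0.21 for KO (adjusted p = 0.121). Its ΔcIDR call was also lost with any 1 of the 6 libraries left out, and on the deposited and ERCC scales.

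The 5 loci lower in ΔcIDR than in WT had neighbours that were lower too, with medians of -1.76 for the loci and -1.07 for the neighbours. Over all 4164 loci with neighbours, the neighbours were higher in ΔcIDR for 56.1%. On chromosomes 6 and 8, where some of the loci below lie, all tested loci had medians of -0.15 and -0.18 for ΔcIDR against WT. A MIR locus on chromosome 4 (chr4:133794241-133794351) had 4 and 2 reads in ΔcIDR, 38 and 24 in KO, and 27 and 33 in WT. The locus reached the minimum only with the KO and the WT libraries. Only ΔcIDR was low, with a change of -3.04 ± 0.56 (log2, SE, n = 2 each, limma adjusted p = 0.0114), and KO against WT was -0.16 ± 0.56 (adjusted p = 0.91). On chromosome 8, a MIR locus (chr8:43570196-43570409) had 4 and 10 reads in ΔcIDR, 80 and 40 in KO, and 33 and 35 in WT, and a MIR locus on chromosome 9 (chr9:68825026-68825161) had 14 and 8 reads in ΔcIDR, 61 and 51 in KO, and 44 and 36 in WT. ΔcIDR was lowest at both, by -2.22 ± 0.44 and -1.76 ± 0.37 (limma adjusted p = 0.021 and 0.0324). An L2 locus on chromosome 10 (chr10:18378001-18378405) had 129 and 140 reads in ΔcIDR, 524 and 363 in KO, and 291 and 223 in WT. Here ΔcIDR fell by 0.82 ± 0.18 (limma adjusted p = 0.0492) and KO rose by 0.58 ± 0.18 (limma adjusted p = 0.049). The ΔcIDR call was lost with any 1 of the 6 libraries left out. The KO call was lost with KO replicate 1, KO replicate 2 or WT replicate 2 left out. The remaining locus, a MIR on chromosome 6 (chr6:97498895-97499098), had 43 and 32 reads in ΔcIDR, 140 and 142 in KO, and 95 and 79 in WT, a change of -1.11 ± 0.24 (limma adjusted p = 0.0464).

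The mutants differed from each other at more loci than either differed from WT. In ΔcIDR against KO, 815 of 4205 old-repeat loci passed (19.4%), beside 18.2% of all tested loci, with 401 higher (9.69% of all loci) and 414 lower (8.5% of all loci). On the deposited scale 1128 were higher and 38 lower (26.6% and 0.772% of all loci), and on the ERCC scale 150 and 1081 (3.92% and 23.1%). The edgeR test called 414 higher and 437 lower (9.86% and 8.94% of all loci), and DESeq2 233 and 218 (5.53% and 4.39%). The limma count was 533 with ΔcIDR replicate 1 left out, 310 for KO replicate 1 and 383 for KO replicate 2. Of the 414 lower loci, 78 reached the minimum only with the KO libraries, and of the 401 higher ones 19 did so only with the ΔcIDR libraries. On chromosomes 6 and 8, 147 of 462 loci were lower in ΔcIDR and 14 higher (31.8% and 3.03%), beside 26.4% and 2.52% of all tested loci there. Of the 323 loci called for KO against WT, 260 were also called here with the opposite sign, and both comparisons share the KO libraries.

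By size of change, the MIR locus on chromosome 1 (chr1:173278159-173278270) came first among the lower loci, with 2 and 0 reads in ΔcIDR, 69 and 50 in KO, and 10 and 4 in WT (limma adjusted p = 0.000384). With 2 reads in all in ΔcIDR, no fold is given, and the call was lost with either KO library left out. Without the KO libraries its mean was 4 reads, so it reached the minimum only through the group where it was high. On chromosome 6, a MIR locus (chr6:52093704-52093930) had 10 and 14 reads in ΔcIDR, 119 and 142 in KO, and 33 and 31 in WT, a change of -3.11 ± 0.32 for ΔcIDR against KO (log2, SE, n = 2 each, limma adjusted p = 2.01e-07). WT lay between the mutants at both loci, closer to ΔcIDR. Among the higher loci, an L2 locus on chromosome 18 (chr18:42275854-42276376) had 44 and 46 reads in ΔcIDR, 6 and 5 in KO, and 29 and 28 in WT, a change of 3.06 ± 0.43 (limma adjusted p = 1.81e-05), and reached the minimum only with the ΔcIDR libraries. On chromosome 11, a MIR locus (chr11:72371856-72372071) had 68 and 85 reads in ΔcIDR, 10 and 16 in KO, and 56 and 57 in WT, a change of 2.76 ± 0.32 (limma adjusted p = 1.54e-06). KO was the lowest group at both, and ΔcIDR lay above WT. The changes of ΔcIDR against WT, 0.74 ± 0.43 and 0.52 ± 0.32, missed the threshold (limma adjusted p = 0.566 and 0.599). A further MIR locus, on chromosome 16 (chr16:5004780-5004900), had 45 and 52 reads in ΔcIDR, 9 and 8 in KO, and 37 and 28 in WT, a change of 2.63 ± 0.39 (limma adjusted p = 3.25e-05).

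Taken over whole families, with loci below the minimum included, 2 of the 5 old-repeat families, RTE-X and RTE-BovB, passed the limma test for ΔcIDR against KO, beside 17 of all 41 families (41.5%). For ΔcIDR against WT 1 of the 5 passed, beside 3 of 41 (7.32%), and for KO against WT 0 of the 5 (2 at an unadjusted p under 0.05), beside 7 of 41 (17.1%). The RTE-BovB reads summed to 47.3 and 50.6 per 1000000 repeat reads in ΔcIDR, 63.9 and 62.9 in KO, and 58.9 and 56.7 in WT. ΔcIDR was the lowest group without overlap, at -0.23 ± 0.03 against WT (log2, SE, n = 2 each, limma adjusted p = 0.0297 over 41 families) and -0.31 ± 0.03 against KO (limma adjusted p = 0.00507). The RTE-X reads summed to 266 and 291 per 1000000 in ΔcIDR, 345 and 343 in KO, and 310 and 285 in WT. KO was highest, with ΔcIDR at -0.25 ± 0.05 against KO (limma adjusted p = 0.0233) and, with overlapping libraries, at -0.08 ± 0.05 against WT (adjusted p = 0.286). MIR, L2 and CR1 sums did not pass in any comparison, with changes between -0.06 and 0.02.

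The RTE sums rest on few reads and on the scale. A single locus gave 17.3% of the RTE-BovB reads and 11.8% of the RTE-X reads. Without it RTE-BovB stood at -0.18 against WT and -0.28 against KO, and RTE-X at -0.24 against KO. On the deposited scale these changes were 0.17, 0.36 and 0.43, with limma adjusted p of 0.601, 0.283 and 0.19, so the direction turned. On the ERCC scale all 5 families passed for ΔcIDR against WT and against KO, beside 80.5% and 82.9% of the 41. With any 1 of the 6 libraries left out, RTE-BovB in ΔcIDR against WT lost the call (limma adjusted p from 0.0674 to 0.158). RTE-X in ΔcIDR against KO lost it with ΔcIDR replicate 1, KO replicate 1 or KO replicate 2 left out (adjusted p up to 0.119).

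**Figure D5:**
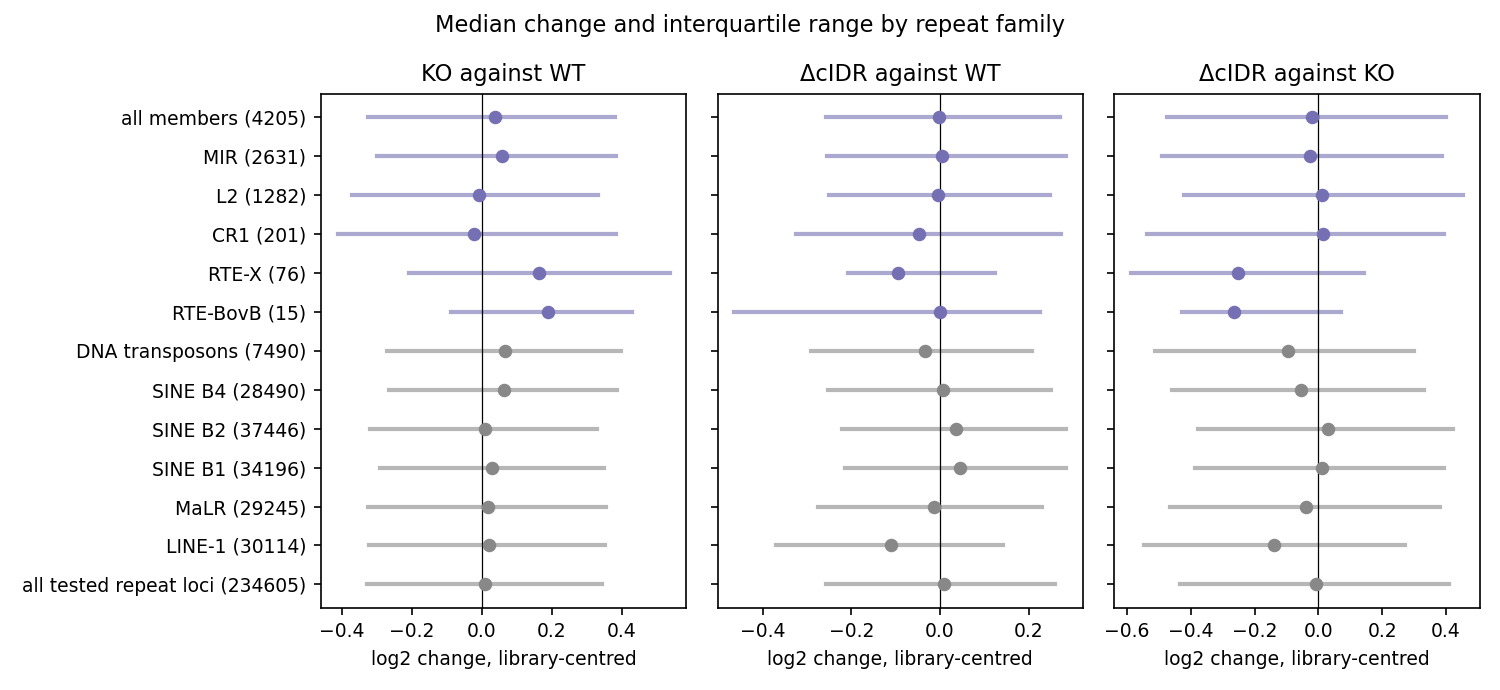
Median (points) and interquartile range (lines) of the library-centred log2 change over loci with at least 20 reads, for the old-repeat families (purple) and for other families and all tested repeat loci (grey), with the number of loci in brackets. Medians of MIR, L2 and CR1 lie within 0.06 of 0 in all panels, and those of RTE-X and RTE-BovB in ΔcIDR against KO are -0.25 and -0.26.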

How the data were processed

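The deposited repeat table holds a signal per locus and library, made by the authors from reads with tools that the submitters' processing notes list as HISAT2, fastp, featureCounts, MACS2, Picard, bedtools and SAMtools, on GRCm39, with no version, role or order. Whether the counting used strand, and how reads shared by similar copies were treated, is not given in the sources used here. Dividing each column by its smallest nonzero value gave whole reads for 100% of values (tolerance 1e-06). The deposited interval table holds a signal with 1 factor per library too and was used for positions and spike-in rows. The 6 columns of each table match the pulled-down samples by genotype, and 0 columns were left unused.

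All 234605 repeat loci with a mean of at least 20 reads were fitted together with limma 3.58.1 in R 4.3.3 (lmFit, eBayes with trend, 1 mean per group, no replicate block), on log2(signal + 2) centred per library, with Benjamini-Hochberg adjustment over all of them and calls at an adjusted p of 0.05. Summed signal was tested likewise over 41 families. Alternatives were edgeR 4.0.16 and DESeq2 1.42.0 on the whole reads, other scales, minimums and pseudocounts, and libraries left out. Overlaps used bedtools 2.31.1. Tables and figures used Python 3.11.15, pandas 2.3.3, numpy 2.4.6 and matplotlib 3.10.9. The limma script was tested on simulated data.

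The loci, families, comparison lists and tests were chosen with earlier results of these data known. Loci named are the 10 with most reads, the leading one of each family, the 8 largest called changes per direction and comparison whose libraries do not overlap (a selection is printed), those next to the minimum and the 5 runs with most loci. Likeness of loci over the 6 libraries, planned as a description, was not used. Marker genes, Alkbh5 itself, gene positions and sequences were not used here, since the reference given is on another build.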

Additional observations from a re-analysis of the deposited data

How the results depend on the processing

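The limits are 2 libraries a group, depth (3.70% of loci with 20 to 30 reads and 18.5% of those with 200 or more passed for KO against WT) and the choice of scale. The number of loci called stayed within 1.5 times of the value reported under pseudocounts of 0.5 and 10, edgeR, and with loci under an interval left out. On the deposited scale 151 loci passed for KO against WT, of which 142 were among the 323 reported, and 0 for ΔcIDR against WT. On the ERCC scale 76 passed for ΔcIDR against WT and 1231 for ΔcIDR against KO. With loci down to 5 reads tested, 157 passed for KO against WT and 3 for ΔcIDR against WT, and the median of ΔcIDR against KO relative to all loci was 0.0367. With a minimum of 50 reads, which leaves fewer loci, 525 passed for ΔcIDR against KO. DESeq2 called 140 for KO against WT and 451 for ΔcIDR against KO. Without chromosomes 6, 8 and part of 11, 5 passed for ΔcIDR against WT.

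Family sums counted by limma were 0 for ΔcIDR against WT and 0 for ΔcIDR against KO on the deposited scale, where RTE-BovB stood at 0.17 and 0.36 and RTE-X against KO at 0.43, and 4, 5 and 5 of 5 for KO against WT, ΔcIDR against WT and ΔcIDR against KO on the ERCC scale. Complete cover by an interval left 36 loci. Outside intervals the loci took 1.39% of repeat reads.

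Same-numbered libraries deviated from their group means with correlations of 0.05, -0.18 and -0.07. The labels link these libraries only by number, and whether they share a batch was not tested further. With the replicate block 239 loci passed for KO against WT, 5 for ΔcIDR against WT and 709 for ΔcIDR against KO, and family sums gave 0 and 1 for ΔcIDR against WT and against KO. With 1 library left out, the lone library being assumed to vary like the others, counts ran from 70 to 386 for KO against WT, from 1 to 13 for ΔcIDR against WT and from 310 to 845 for ΔcIDR against KO, and family sums were 0 for ΔcIDR against WT and 1 to 2 for ΔcIDR against KO. Of 69 calls at named loci, 27 held under every alternative run, 42 were lost under at least 1, and 0 turned direction. The cause of these differences was not tested.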
